A study of Mus musculus with 8 samples.

Results

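The class I odorant receptor (OR) genes of the mouse form a single locus on chromosome 7, and their mRNAs were measured in olfactory mucosa after conditional deletion of Lhx2. Members were chosen by symbol, as Olfr543 to Olfr692 with Olfr64 to Olfr69 and Olfr78, from transcript clusters that name exactly 1 gene. This gave 114 of the 19928 genes tested, and each of the 114 was matched to a protein coding gene of chromosome 7 in RefSeq. An older class I family name (MOR1 to MOR42) is attached to 113 of them, the exception being Olfr652. RefSeq holds 125 genes that meet the symbol rule, and of the 11 without a cluster of their own 8 share a cluster with another gene. Olfr78, which shares its cluster with Olfr560, is among these and was not analysed here.

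Olfactory mucosa of 8 mice at postnatal day 3 was hybridised to GeneChip Mouse Gene ST arrays. The 4 conditional knockout mice (cKO) were 123Cre:Lhx2(fl/fl). The 4 littermate controls were Lhx2(fl/+) without the transgene (controls 1 and 2) or 123Cre:Lhx2(fl/+) (controls 3 and 4), so every mouse carried at least 1 floxed Lhx2 allele. All were on a background of 129 and C57BL/6J mixed. Cre from the 123Cre transgene begins in immature olfactory sensory neurons (OSNs), and LoxP sites flank the first 3 exons of Lhx2. Recombination in this line reaches only some OSNs, so the mucosa holds a mixture of deleted and undeleted neurons.

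ORs are G-protein-coupled receptors in the cilia of OSNs, and each mature OSN transcribes a single OR allele out of the whole repertoire. Class I ORs resemble the ORs of fish, are used mainly by OSNs of the dorsal epithelium and are known for responses to carboxylic acids and other hydrophilic odorants. Their genes lie side by side around the beta-globin locus, and a long-range enhancer in the locus, the J element, acts on many of them. Lhx2 is a LIM-homeodomain transcription factor whose sites occur in OR promoters and enhancers.

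Lhx2 itself had log2 values of 13.14, 13.09, 13.20 and 13.13 in controls 1 to 4, against 13.03, 12.55, 13.01 and 13.02 in cKO mice 1 to 4. All cKO arrays lay below the controls, but the difference of -0.24 (SE 0.11) missed the threshold (limma, adjusted p = 0.337), and the cluster combines all exons, so it is a weak check of a deletion of the first ones. Mouse cKO 2 had the lowest Lhx2 value and was the only cKO mouse with the sex-linked gene Xist above 13 (13.45). Controls 1 and 4 were also above 13 (13.43 and 13.51), so the groups were not balanced in this gene. Array medians ran from 8.82 to 8.89. Markers of mature OSNs, which were lower in the cKO mice, are given beside the OR results below.

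Most class I OR mRNAs were less abundant in cKO mice than in littermate controls. The difference was below 0 for 113 of the 114 genes, with a median of -0.65 on the log2 scale (quartiles -0.87 and -0.46) where the median over all genes was 0.03. Averaged over the members, abundance was 35.9% lower. By limma, 25 members (21.9%) fell past the threshold of an adjusted p of 0.01, against 2.07% of the genes tested, and 0 rose, against 0.0602%. At an adjusted p under 0.05, 70 members (61.4%) were lower, against 5.17% of all genes. In 79 members (69.3%) all 4 cKO arrays lay below all 4 control arrays, against 8.43% of all genes, and in 0 members all 4 lay above them, against 3.18%. The arrays hold whole mucosa, in which fewer cells expressing a receptor and less receptor mRNA per cell cannot be told apart.

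**Figure D1:**
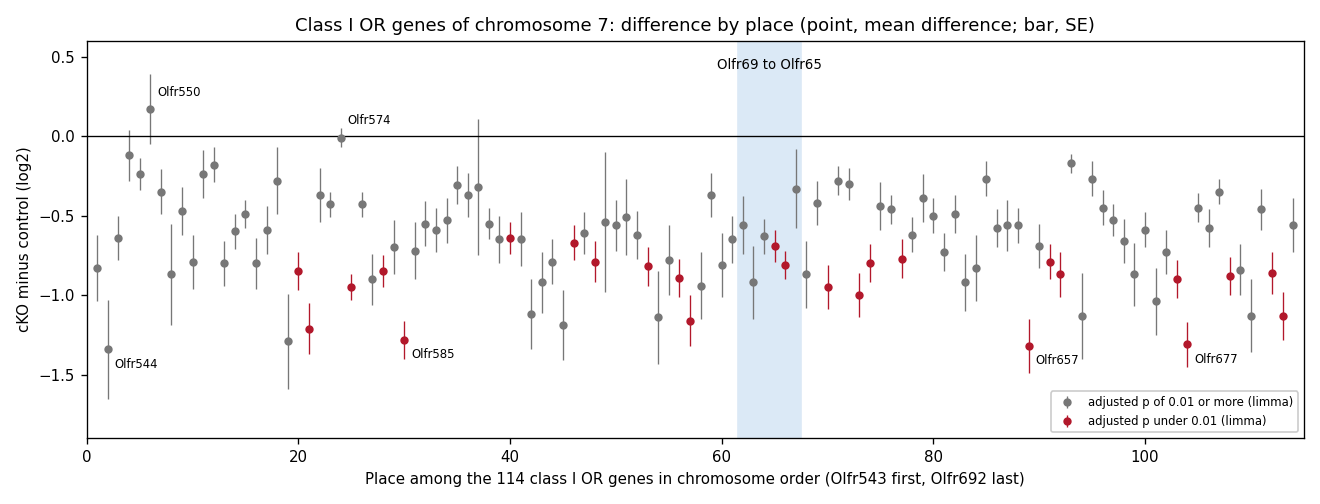
Difference between the means of the 4 cKO and 4 control arrays (y axis, log2) for each class I OR gene, placed in chromosome order (x axis), with bars for the SE and red points for genes past an adjusted p of 0.01 by limma. The points lie between -1.34 (Olfr544) and 0.17 (Olfr550), and the 25 red points are spread along the locus on either side of the shaded Olfr69 to Olfr65.

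The 10 largest falls past the threshold left between 39.9% and 53.7% of the control abundance. Olfr657 read 8.88, 8.57, 8.89 and 8.52 in controls 1 to 4 and 7.81, 6.96, 7.35 and 7.43 in cKO mice 1 to 4, a difference of -1.32 (SE 0.17, adjusted p = 0.00431). Olfr677 read 9.90, 9.77, 10.07 and 9.84 in controls and 8.96, 8.24, 8.54 and 8.59 in cKO mice, a difference of -1.31 (SE 0.14, adjusted p = 0.00254). In both genes the highest cKO value was that of cKO 1 and the lowest that of cKO 2, and the groups were separated by more than the whole range of the controls. Olfr585 read 7.04, 7.25, 7.39 and 7.52 in controls and 6.27, 5.81, 6.01 and 5.99 in cKO mice, a difference of -1.28 (SE 0.12, adjusted p = 0.00186). Olfr575 had the smallest p of the members, with 8.48, 8.32, 8.25 and 8.24 in controls and 7.57, 7.26, 7.30 and 7.35 in cKO mice (difference -0.95, SE 0.08, adjusted p = 0.00125). Olfr585 and Olfr575 were the only 2 members that stayed past the threshold whichever of the 8 arrays was left out.

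Other large falls came from several families. Olfr570, which belongs with Olfr575 to family MOR8, fell to 43.2% of control (difference -1.21). Olfr691, of family MOR31, read 9.11, 8.81, 9.50 and 9.10 in controls and 8.26, 8.02, 7.88 and 7.82 in cKO mice (difference -1.13, SE 0.15, adjusted p = 0.00447). Here cKO 3 and cKO 4 were the lowest arrays, and the groups did not overlap. Olfr622 fell to 44.7% of control, Olfr639 to 49.9%, Olfr633 to 51.7% and Olfr676 to 53.7%. Olfr64 (difference -0.81, SE 0.09, adjusted p = 0.00267) and Olfr578 (difference -0.85, SE 0.10, adjusted p = 0.00341) fell less but varied little between arrays. The threshold cut a continuous range, with adjusted p = 0.00975 for the called member nearest to it and 0.0106 for the nearest uncalled one.

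**Figure D2:**
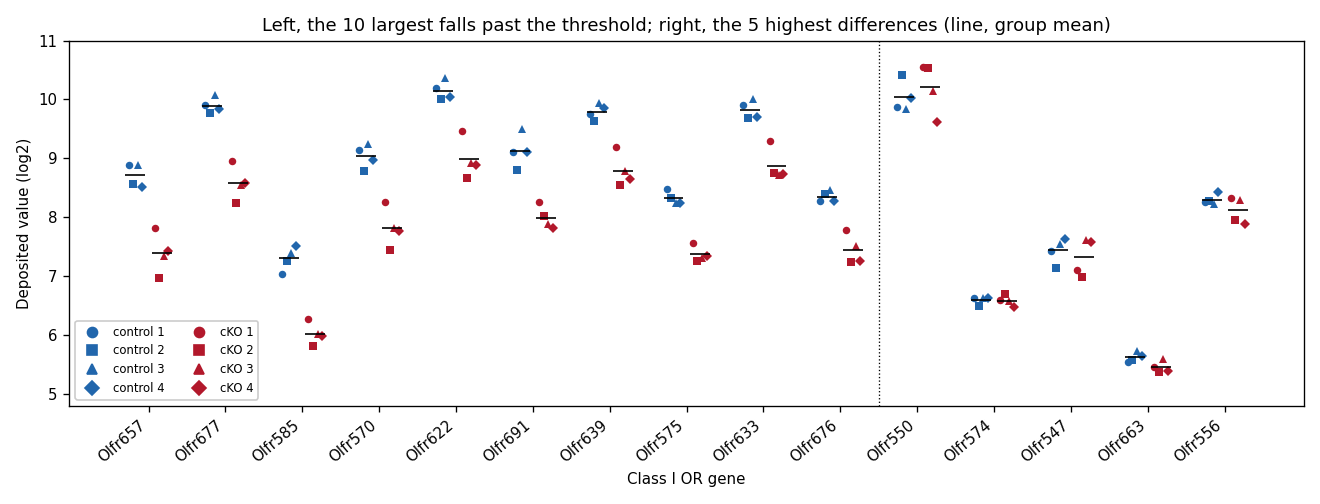
Deposited log2 value (y axis) on each of the 4 control arrays (blue) and 4 cKO arrays (red) for the 10 class I OR genes with the largest falls among those past an adjusted p of 0.01 by limma and, right of the dotted line, the 5 with the highest cKO minus control difference, with a line at each group mean. In the first 10 genes every cKO array lies under every control array, and in Olfr550, Olfr574, Olfr547, Olfr663 and Olfr556 the groups overlap. Heights of different genes depend on their probes and are not compared.

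The lowest difference of all was not among the calls. Olfr544, a receptor for azelaic acid that is also expressed outside the nose, read 9.07, 9.19, 9.14 and 9.40 in controls and 7.97, 6.81, 8.25 and 8.43 in cKO mice, a difference of -1.34 (SE 0.31, adjusted p = 0.0402). Every cKO array was below the controls, and cKO 2 was far below the other cKO arrays, which gives the gene its large SE. Its neighbours of family MOR42, a family known for dicarboxylic acid ligands, had the same lowest array. Olfr543 read from 10.09 to 10.57 in controls and 9.48, 8.78, 9.66 and 9.82 in cKO mice (difference -0.83, adjusted p = 0.0619). Olfr545, one of the receptors that the study also counted in tissue sections, read from 9.17 to 9.57 in controls and 8.88, 8.32, 8.83 and 8.92 in cKO mice (difference -0.64, SE 0.14, adjusted p = 0.0364).

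At the other end of the range stood a few genes with almost no difference. Olfr550 read 9.88, 10.42, 9.83 and 10.03 in controls and 10.55, 10.54, 10.14 and 9.61 in cKO mice, and its difference of 0.17 (SE 0.22, adjusted p = 0.786) was the only one above 0. Its groups overlapped, with cKO 1 and cKO 2 above all controls and cKO 4 below them. Olfr574 read from 6.50 to 6.63 in controls and from 6.47 to 6.70 in cKO mice (difference -0.01, SE 0.06, adjusted p = 0.962). The remaining 3 of the highest 5 were Olfr547 (-0.12, SE 0.16), Olfr663 (-0.17, SE 0.06) and Olfr556 (-0.18, SE 0.11), none past the threshold. Olfr663 is dim, at 5.55 to 5.72 in controls, which leaves little room above the median of the vomeronasal receptor genes (5.36), a set hardly transcribed in this tissue. No member had a control mean below that median and 1 had a cKO mean below it.

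RefSeq windows (GRCm38.p6) show how the start regions of genes at both ends of this range differ in letters. Of the 98 members with a window, 71 have one that ends at the start codon, so it lies at an annotated coding start and not at a promoter. For 9 members the gene spans over 2000 bases and begins at an upstream first exon, and the 250 bases before that exon were searched for TAATNA, a homeodomain core, on both strands with overlapping matches counted once per start. The lowest and the highest member by difference and the member with the most matches, Olfr630 (difference -0.65), are printed 5′ to 3′ on the gene's strand, with matches in capitals. Olfr544 lies at chr7:102488308-102488557 (minus strand), Olfr550 at chr7:102578219-102578468 (plus strand) and Olfr630 at chr7:103757351-103757600 (minus strand).
Olfr544: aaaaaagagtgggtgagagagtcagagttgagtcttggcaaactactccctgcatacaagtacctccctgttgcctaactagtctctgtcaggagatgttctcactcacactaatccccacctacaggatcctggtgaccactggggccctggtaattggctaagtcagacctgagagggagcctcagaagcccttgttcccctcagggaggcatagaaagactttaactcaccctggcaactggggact
Olfr550: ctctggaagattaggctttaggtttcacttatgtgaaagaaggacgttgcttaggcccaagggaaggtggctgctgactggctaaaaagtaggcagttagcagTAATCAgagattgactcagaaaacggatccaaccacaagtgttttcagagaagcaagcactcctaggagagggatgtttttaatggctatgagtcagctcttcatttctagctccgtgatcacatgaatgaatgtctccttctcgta
Olfr630: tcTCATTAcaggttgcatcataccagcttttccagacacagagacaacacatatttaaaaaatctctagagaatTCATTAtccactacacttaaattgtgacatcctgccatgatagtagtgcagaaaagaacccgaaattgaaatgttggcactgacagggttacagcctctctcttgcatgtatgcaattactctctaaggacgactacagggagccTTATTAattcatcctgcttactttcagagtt
Olfr544 holds 0 matches, Olfr550 1 and Olfr630 3. Over the 9 members, 4 windows (44.4%) hold a match, as do 22.5% of 28807 windows of all genes with an upstream first exon and 63 of 91 (69.2%) of those of other OR genes. Base composition differs along with this share, with a median of 55.6% A or T in the 9 windows, 46.8% over all genes and 62.4% in the other OR genes. A match is a run of letters and was not tied to binding or to the differences above.

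Receptors with a known ligand or a known role elsewhere ranged from Olfr544 and Olfr691, given above, to genes that missed the threshold. Olfr558, a receptor for short-chain and branched carboxylic acids that is also found in blood vessels, read from 9.04 to 9.28 in controls and 8.87, 8.49, 8.42 and 8.42 in cKO mice (difference -0.60, SE 0.11, adjusted p = 0.0127). Olfr692, which also marks a group of vomeronasal neurons, read 9.48, 9.83, 10.20 and 9.70 in controls and 9.62, 9.27, 9.09 and 8.99 in cKO mice (difference -0.56, SE 0.17, adjusted p = 0.128). In Olfr558 the groups did not overlap, and in Olfr692 cKO 1 lay among the controls. Olfr609 (-0.61, adjusted p = 0.0246), Olfr642 (-0.46, adjusted p = 0.0188) and Olfr672 (-1.04, adjusted p = 0.0203) missed the threshold with non-overlapping groups. Olfr615, the second receptor counted in sections by the study, read 8.36, 8.22, 8.62 and 8.25 in controls and 8.47, 8.13, 7.44 and 7.35 in cKO mice (difference -0.51, SE 0.24, adjusted p = 0.371). Its cKO 1 value lay among the controls while cKO 3 and cKO 4 were well below them.

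The calls were spread over the class I families rather than held by a few. At least 1 member fell in 15 of the 41 MOR families measured. Among the 6 families with 5 or more members, MOR31 had 3 of 11 members past the threshold (median difference -0.78, range -1.14 to -0.12) and MOR32 had 2 of 11 (median -0.73, range -1.31 to -0.37). MOR40 had 3 of 7 (median -0.58, range -1.32 to -0.17), and MOR34 had 1 of 7 (median -0.66). MOR13 had 2 of 6 (median -0.54) and MOR14 had 1 of 6 (median -0.70, range -1.29 to -0.01). MOR40 thus holds a member near the bottom of the range, Olfr657, and one near the top, Olfr663, and MOR14 likewise holds Olfr585 and Olfr574.

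The Olfr numbers follow the chromosome except for Olfr64 to Olfr69, which lie between Olfr630 and Olfr631 in the order Olfr69, Olfr68, Olfr67, Olfr66, Olfr64, Olfr65 and are split by the beta-globin genes. Neighbours along this order were hardly more alike than other members. The correlation between the differences of neighbouring members was 0.08 over 113 neighbour pairs, and that between their control levels was -0.01. These are descriptions across genes that share the same 8 arrays and in part near-identical probes. Neighbours differed from each other by a median of 0.28, and any pair of members by a median of 0.29. In consecutive windows of 10 members the median difference ranged from -0.48 (Olfr635 to Olfr646) to -0.86 (Olfr672 to Olfr686), with 0 to 4 calls per window. The first window, Olfr543 to Olfr554, had 0 calls and held both the lowest and the highest difference of the locus. In 7 neighbour pairs both members were called, and no run of calls was longer than 2.

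Members fell on either side of the globin genes. Before Olfr69, 11 of 61 members fell (18.0%), among Olfr64 to Olfr69 2 of 6 (33.3%, Olfr64 and Olfr66), and after Olfr65 12 of 47 (25.5%). At an adjusted p under 0.05 the counts were 34 of 61, 3 of 6 and 33 of 47, and the differences between these stretches were not tested. Olfr66 read 7.22, 7.19, 7.10 and 7.28 in controls and 6.77, 6.24, 6.56 and 6.44 in cKO mice (difference -0.69, SE 0.10, adjusted p = 0.00701). Olfr68, which had the highest control mean of the members, read from 10.44 to 10.76 in controls and 10.19, 8.93, 9.69 and 9.79 in cKO mice (difference -0.92, SE 0.23, adjusted p = 0.0521). The others of this group were Olfr67 (-0.63, adjusted p = 0.0112), Olfr69 (-0.56, adjusted p = 0.143) and Olfr65 (-0.33, adjusted p = 0.61). The 19 measured genes that lie inside the locus but encode no OR had differences from -0.12 to 0.23 (median 0.03) and 0 calls by limma at an adjusted p under 0.01 or 0.05. Among them the globin genes Hbb-bh2, Hbb-bh1 and Hbb-y differed by 0.13, -0.12 and 0.21.

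Control means of the members ran from 5.54 (Olfr624) to 10.57 (Olfr68) with a median of 8.97, a range that reflects probe sequence as well as mRNA. Over the members, control mean and difference correlated at -0.25 (Pearson and Spearman), a weak relation across genes that share the same arrays. The control mean is itself a term of the difference, and background signal can shrink the log2 difference of dim genes. The part of either in this correlation was not tested.

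The cKO mice were less alike than the controls in these genes. The SD over 4 arrays had a median of 0.141 in controls and 0.285 in cKO mice, and it was higher in cKO mice for 104 members (91.2%), against 44.3% of all genes and 82.7% of the 901 other OR genes. The median ratio of the cKO SD to the control SD was 2.08 in the members and 0.90 over all genes. It was 1.95 in the other OR genes and 2.16 in class II OR genes of chromosome 7, so class I did not stand apart. Among the members the median ratio was 1.36 without cKO 1, and 1.78 to 2.45 without any other single array. The array-wise mean over the 114 members was 8.78, 8.66, 8.86 and 8.73 in controls 1 to 4 and 8.41, 7.91, 8.04 and 7.97 in cKO mice 1 to 4. Control means thus averaged 8.76 ± 0.09 and cKO means 8.08 ± 0.22 (SD, n = 4 each), a difference of -0.67 that was -0.78 without cKO 1 and -0.62 without cKO 2. Mouse cKO 1 was the highest cKO array in 93 members (81.6%), against 58.3% of other OR genes and 28.1% of all genes. In 22 members (19.3%) it alone failed to lie below all controls, against 4.99% of other OR genes and 1.4% of all genes.

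**Figure D3:**
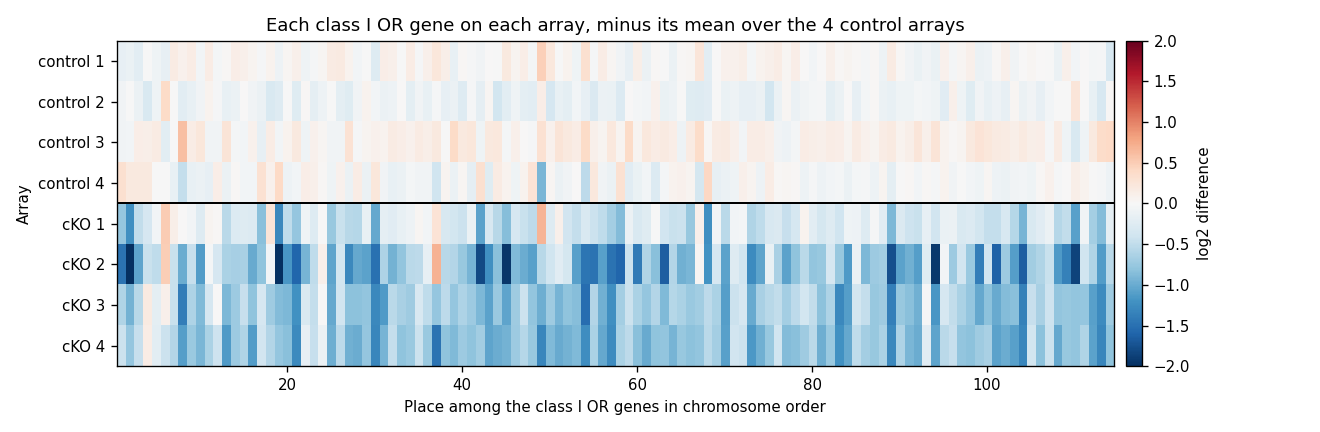
Log2 value of each class I OR gene (columns, chromosome order) on each of the 8 arrays (rows), minus the mean of that gene over the 4 control arrays (blue lower, red higher). The 4 cKO rows are blue along most of the locus, palest in cKO 1, with single dark cells in cKO 2 such as Olfr544 at place 2.

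**Figure D4:**
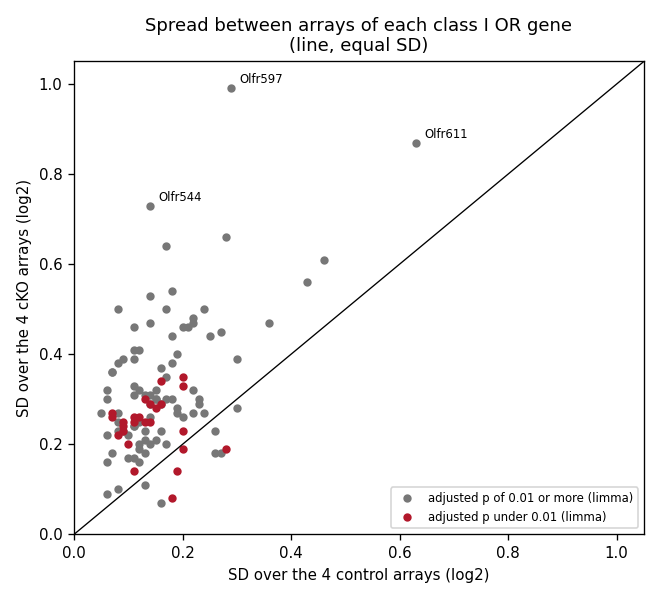
SD over the 4 cKO arrays (y axis, log2) against SD over the 4 control arrays (x axis, log2) for each class I OR gene, with genes past an adjusted p of 0.01 by limma in red and a line of equal SD. Of the 114 points 104 lie above the line, with Olfr597 highest at 0.99.

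The cKO arrays did not rank alike in all members. Mouse cKO 2 was the lowest cKO array in 60 class I genes (52.6%) and cKO 4 in 39 (34.2%). In the other OR genes cKO 2 was lowest in 788 of 901 (87.5%) and cKO 4 in 62 (6.88%). Over all genes cKO 2 was lowest in 26.9% and cKO 4 in 29.8%. In 8 class I genes (7.02%) cKO 3 and cKO 4 lay below all controls while cKO 1 and cKO 2 did not. This pattern, chosen after the values were seen, was held by 3 other OR genes (0.333%) and by 1.41% of all genes. Among the 8, Olfr597 is the widest case, with 8.82, 8.57, 8.78 and 8.19 in controls and 8.87, 9.28, 7.82 and 7.11 in cKO mice (difference -0.32, SE 0.43, adjusted p = 0.797). Olfr611 read 8.65, 8.30, 8.48 and 7.25 in controls and 8.85, 7.61, 7.19 and 6.87 in cKO mice. Olfr65 read 8.95, 8.45, 9.08 and 8.36 in controls and 8.81, 8.75, 8.02 and 7.92 in cKO mice. In these 3 genes and in Olfr555 control 4 was the lowest control, whereas in the other 4, Olfr566, Olfr641, Olfr653 and Olfr666, control 2 was. None of the 8 passed the threshold (adjusted p from 0.18 to 0.797).

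A gene inside the locus that encodes no OR also set cKO 1 and cKO 2 apart from cKO 3 and cKO 4. Trim12a, a tripartite-motif gene between Olfr649 and the next member, read 8.03, 7.80, 7.75 and 6.14 in controls 1 to 4 and 8.69, 8.96, 6.14 and 5.97 in cKO mice 1 to 4. It was thus high in cKO 1 and cKO 2, lower in controls 1 to 3 and lowest in control 4, cKO 3 and cKO 4, with a group difference of 0.01 (SE 0.75). Trim30d beside it ran the same way, from 7.25 and 6.94 in cKO 1 and cKO 2 to 5.63, 6.00 and 5.86 in control 4, cKO 3 and cKO 4. Trim30e-ps1, a dim entry, was likewise lowest in control 4, cKO 3 and cKO 4 (5.26, 5.45 and 5.23), though control 1 was its highest array (5.90). Trim12c ran in reverse, with 7.78, 7.99, 7.81 and 8.05 in controls and 7.34, 7.94, 8.36 and 8.40 in cKO mice. It was highest in control 4, cKO 3 and cKO 4, where Trim12a was lowest. Trim6, Trim34a and Trim30a did not divide the mice in this way. All were named after their values were seen. The parental strain of this stretch of chromosome 7 in each mouse is not given in the labels, and its part in the spread of the OR genes was not tested.

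Mature OSN markers were lower in cKO mice as well. Their group difference was close to that of the class I genes, but cKO 2 lay further below the other cKO arrays. Over 19 of 20 listed markers the mean was 12.08 to 12.16 in controls and 11.62, 11.01, 11.55 and 11.49 in cKO mice, a difference of -0.70. Single markers ran from -0.11 (S100a5) to -1.81 (Faim2), with a median of -0.59. By limma 6 of the 19 fell and 0 rose, among them Omp (-0.97, adjusted p = 0.00605), the mature OSN marker protein, and the transduction genes Adcy3 (-0.86, adjusted p = 0.00267) and Cnga4 (-1.60, adjusted p = 0.00434). No marker was near background, the dimmest standing at 10.69 in controls. The 15 immature OSN markers differed by -0.08 on average, and 1 of them, Stmn4, fell (-0.30, adjusted p = 0.00447). The sustentacular cell markers (0.02) and horizontal basal cell markers (0.07) had 0 calls. The 7 measured of 8 OSN progenitor markers also had 0 calls, but their mean was 10.73 to 10.79 in controls and 10.84 to 10.98 in cKO mice, so that all cKO arrays lay above the controls (difference 0.13). The 4 dorsal zone markers, whose OSNs include those using class I ORs, averaged 12.17 to 12.30 in controls and 11.83, 11.38, 11.64 and 11.81 in cKO mice (difference -0.56). Of these 4, 0 passed the threshold, with Nqo1 at -1.18 (adjusted p = 0.0175), Nrp1 at -0.59, Robo2 at -0.31 and Acsm4 at -0.16. The 2 ventral zone markers differed by -0.26 on average, with Ncam2 at -0.65 (adjusted p = 0.428) and Nrp2 at 0.13 (adjusted p = 0.606). A difference between the zones was not tested. Of 20 measured regulators of OR choice and expression, only Adcy3, already counted among the mature OSN markers, passed the threshold. At an adjusted p under 0.05, 3 were lower (5.17% of all genes). Besides Adcy3 these were Ebf4 (-0.46, adjusted p = 0.0192) and Rtp1 (-0.37, adjusted p = 0.0327), the latter also a listed mature OSN marker.

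The mature OSN marker difference of -0.70 (38.5% lower) was taken off as 1 constant, from OR and trace amine-associated receptor genes only. Class I genes then lay on both sides of 0. Of the 114, 50 then lay below 0 and 64 above, with a median of 0.05. By limma 0 were lower and 2 higher at an adjusted p under 0.01, against 0.125% and 0.0753% of all genes. At an unadjusted p under 0.05 there were 7 lower (6.32% of all genes) and 21 higher (5.81%). Most genes behind these shares had nothing subtracted, so the comparison is not like for like. Of the 901 other OR genes, corrected in the same way, 2 were lower and 10 higher past the adjusted threshold. The 2 class I genes that were higher were Olfr574 (0.69, adjusted p = 0.00288) and Olfr663 (0.54, adjusted p = 0.0093). Their uncorrected differences were -0.01 and -0.17 (SE 0.06 each), so the constant itself placed them above 0. Both are dim, with control means of 6.59 and 5.62 where the vomeronasal receptor median was 5.36. With the marker mean taken off the same receptor genes array by array instead, 0 class I genes were lower (0.401% of all genes) and 0 higher (0.0251%). Among the other OR genes 38 were then lower and 1 higher. The class I mean minus the marker mean was -3.30, -3.45, -3.27 and -3.43 in controls and -3.21, -3.09, -3.51 and -3.52 in cKO mice. Thus cKO 1 and cKO 2 lay above all controls and cKO 3 and cKO 4 below them. The study's own correction used a much longer published list of mature OSN mRNAs that was not used here, and the size of the subtraction depends on the list, so these values hold for the 19 markers only. The markers were listed with earlier results of these data known. They include Faim2 at -1.81, which equals the lowest difference among genes that encode no chemoreceptor, and Cnga4 at -1.60. Such markers enlarge the constant, so the place of the class I genes around 0 is in part set by the list. The values also hold for the marker mean only. The marker median of -0.59 is a smaller fall than the uncorrected class I median of -0.65, and its subtraction was not fitted.

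**Figure D5:**
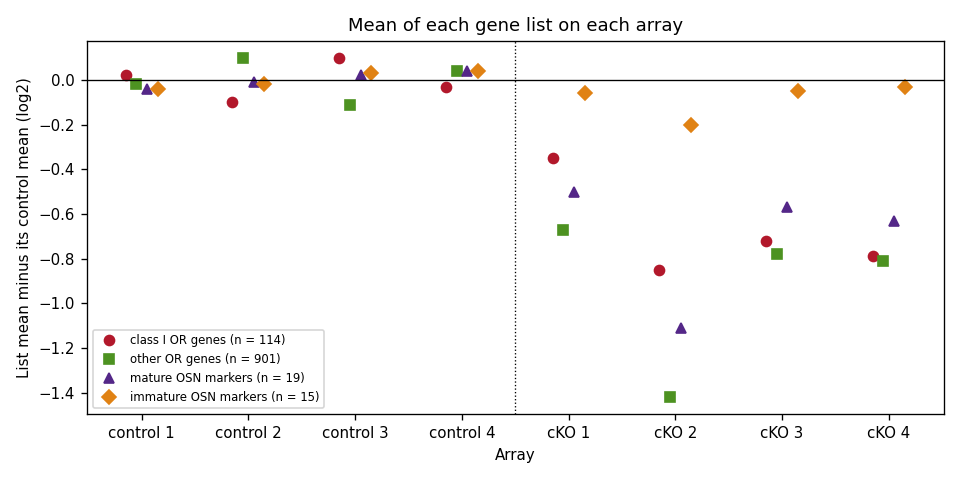
Mean of each gene list on each array minus its mean over the 4 control arrays (y axis, log2) for the 114 class I OR genes, 901 other OR genes, 19 mature OSN markers and 15 immature OSN markers. On the cKO arrays the first 3 lists lie below 0 and the immature OSN markers lie near it. In cKO 2 the other OR genes and the mature OSN markers drop well below the class I genes.

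The other OR genes gave a larger difference on average. Of 901, 281 (31.2%) fell, with a median difference of -0.90, and of the 102 class II genes elsewhere on chromosome 7 29 (28.4%) fell, with a median of -0.92. The mean of the 901 was 8.02, 8.14, 7.93 and 8.08 in controls and 7.37, 6.62, 7.26 and 7.23 in cKO mice. Relative to controls, the gap to the class I genes was widest in cKO 2, where the other OR genes were at their lowest, and was seen in cKO 1 as well. Among mice with titles of letter A the difference was -0.66 for class I and -0.71 for other OR genes, and among those of letter B, which hold a single cKO mouse (cKO 2), it was -0.80 and -1.46. The meaning of the letters is not stated, and the class difference itself was not tested.

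The control genotypes did not differ detectably in these genes. In the model with 3 genotypes, 0 members and 0.0% of all genes passed an adjusted p of 0.01 by limma between 123Cre:Lhx2(fl/+) and Lhx2(fl/+) controls, the smallest adjusted p being 0.631, and 1 member (Olfr606, difference 0.37) passed an unadjusted p of 0.05, against 7.78% of all genes. The 123Cre controls were higher in 85 members, lower in 29 and higher in 43.1% of all genes, with differences from -0.61 (Olfr611) to 0.44 (Olfr631) and a median of 0.08. With 2 arrays of each genotype, and with genotype and title letter coinciding, a transgene difference and a letter difference cannot be told apart.

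The number of calls depended on the arrays used, although the direction of the list mean did not. Without cKO 1 the count of members lower rose to 61, and without cKO 2 it was 27. It was 2 without cKO 3, 3 without cKO 4, 2 without control 1, 7 without control 2, 5 without control 3 and 2 without control 4. With the title letter as a block 38 members were lower. By the methods' t-test 0 members passed after adjustment, and 60 were lower at an unadjusted p under 0.01, against 5.64% of all genes. Each of the 25 members passed in at least 1 of these 8 smaller fits, and 5 passed in 4 or more.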

How the data were processed

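RNA of olfactory mucosa from 4 cKO mice and 4 littermate controls was measured on GeneChip Mouse Gene ST arrays. The authors deposited log2 values for 28312 transcript clusters, each a summary of the exon-level probe sets of a gene, made with Affymetrix Expression Console per the submitters' processing notes. How they corrected for background and normalized is not given in the sources used. Precision is limited by the number of arrays, and the arrays within a group differed by a root mean square of 0.19 to 0.30 over all 28312 clusters. The study drew its cKO mice from fewer litters than mice, and controls came from each of these litters. Which mice were littermates is not in the labels, so litter could not be fitted and p-values measure the spread between these arrays.

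Clusters were named from the platform annotation (1 symbol for 21759, several for 1605, none for 4948), clusters with several symbols were left out, and the brightest cluster of a gene was kept (Olfr617 has 2). Groups came from the genotype labels, and replicate numbers follow accession order and pair nothing. The cKO minus control difference was fitted with limma 3.58.1 in R 4.3.3 (lmFit and eBayes, two-sided, Benjamini-Hochberg over 19928 genes, threshold 0.01), and checked on simulated data. A second fit with 3 genotypes compared the control genotypes. Fits cover all genes, and adjusted p-values are from limma unless another test is named. List means, order and spread are described without a test.

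The members, gene lists and named genes were chosen with earlier results of these data known. Named were the 10 largest falls past the threshold with separate groups, the 5 smallest p, the 5 highest differences, the receptors counted in tissue sections, members with a known ligand or role, the ends of the series, Olfr64 to Olfr69, the globin genes, Lhx2 and the leading marker genes. Other genes are marked where they appear or were the extremes of a range. RefSeq (GRCm38.p6) gave family names, gene order and start windows, and the array's own build is not stated. Alternatives were the methods' t-test, a threshold of 0.05, quantile normalization, eBayes with trend and robust options, centring on genes that encode no chemoreceptor, a filter at log2 7.52, all clusters, class I by MOR name, the title letter as block, each control genotype alone, subtraction of mature OSN markers and each array left out.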

Additional observations from a re-analysis of the deposited data

Results flagged for a closer look

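Among 68 groups of 4 arrays, from the 31 named members and 3 list means, 4 held an array whose gap to the others passed the 95% limit of Dixon's test, which chance passes in about 1 of 20 such groups. In Olfr633, cKO 1 read 9.29 while the other cKO arrays read 8.72 to 8.75. In Olfr558, cKO 1 read 8.87 while the others read 8.42 to 8.49. In Olfr545, cKO 2 read 8.32 while the others read 8.83 to 8.92. In Olfr574, control 2 read 6.50 while the other controls read 6.62 or 6.63.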

How the results depend on the processing

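No paired analysis was possible because the labels number no replicates. The count of members lower in cKO mice was 25 in the fit reported. It was 38 with the title letter as a block, 70 at an adjusted p under 0.05, 0 by the methods' t-test after adjustment and 60 by that test at an unadjusted p under 0.01 (5.64% of all genes). It was 0 with only the Lhx2(fl/+) controls and 0 with only the 123Cre:Lhx2(fl/+) controls, where fewer arrays enter. Leaving out 1 array gave 2 to 61. Subtracting mature OSN markers gave 0 lower as a constant or array by array, 2 higher as a constant, and a list mean of 0.029 either way in place of -0.673, a sign change that follows from the subtraction. The count stayed within 1.5 times 25 under the other alternatives, and the list mean stayed below 0 under all but the subtraction.

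The same subtraction, as a constant or array by array, turned 14 named members above 0: Olfr574 to 0.69, Olfr547 to 0.59, Olfr663 to 0.54, Olfr556 to 0.52, Olfr65 to 0.37, Olfr642 to 0.25, Olfr615 to 0.19, Olfr692 to 0.14, Olfr69 to 0.14, Olfr558 to 0.10, Olfr609 to 0.09, Olfr67 to 0.07, Olfr545 to 0.06 and Olfr66 to 0.01. Olfr574, at -0.01, also changed sign under quantile normalization (0.02), with only the Lhx2(fl/+) controls (0.02), and with 1 array left out, when it ranged from -0.05 to 0.03 (0.00 without control 1 or control 3, 0.03 without cKO 4). Olfr547 read 0.04 with only the Lhx2(fl/+) controls. The cause of the changes by array and by control genotype was not tested.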
